A study of Mus musculus with 12 samples.

Results

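The genes described here encode the nuclear subunits of respiratory complexes II, III and IV and of the ATP synthase, complex V, together with the somatic cytochrome c gene Cycs. They were taken by symbol from a list of 38 genes. Of these, 37 had a probe set that the platform annotation gives exactly 1 symbol, out of 18193 genes measured in this way. Cox7b had none and is not described further. All 4 listed subunits of complex II, 9 of 9 of complex III, 9 of 10 of complex IV and 14 of 14 of complex V were measured. A gene with several probe sets was represented by the one with the highest mean over the 12 arrays.

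The study compared untreated Gdap1-/- mice, which lack exon 5 of Gdap1, with wild type mice, all aged 2 months. The Gdap1 protein sits in the outer membrane of mitochondria, and mutations of the gene cause a form of Charcot-Marie-Tooth neuropathy. There were 4 groups of 3 arrays, namely whole sciatic nerve lysate of each genotype and motoneurons of each genotype cut out by laser. The arrays of a group are labelled as biological replicates. According to the design text, RNA came from 5 mice, and 3 samples per group were picked for yield and quality. The text does not say whether the 5 mice are per group, nor whether a nerve and a motoneuron sample share a mouse. The Gdap1 probe sets lie in exons 4 and 6, outside the deletion, and check nothing about the genotype labels.

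Complex II, succinate dehydrogenase, passes electrons from succinate to ubiquinone and is also an enzyme of the citric acid cycle. Complex III moves them from ubiquinol to cytochrome c, a small soluble carrier of the intermembrane space. Complex IV, cytochrome c oxidase, hands them to oxygen, and complex V makes ATP from the proton gradient that complexes III and IV help to build. Long peripheral axons and the motoneurons that form them have a high demand for ATP. Some subunits of complexes III, IV and V are encoded by mitochondrial DNA, and those were not part of the list.

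Several features of the arrays bear on these genes. The authors' values are log2 intensities per probe set. Array medians were 8.29 to 8.40 in nerve and 6.53 to 6.59 in motoneurons. A level in one tissue is therefore not on the scale of the other. Most of the genes lie near the top of the scale. 36 of 37 had a mean above 12, between 12.67 and 15.17, while the highest value of any probe set was 15.57. Cox7c was the exception, with a mean of 8.59. The replicates were tight, with a median SD of 0.0349 to 0.1 over the 37 genes against 0.181 to 0.208 over all probe sets in the 4 groups. In motoneurons, wild type replicate 3 stood apart from its group, with a mean correlation of 0.987 with its own group and 0.989 with the knockout arrays. A probe set for 18S ribosomal RNA read 13.94 and 13.77 in wild type replicates 1 and 2, 14.64 in replicate 3 and 14.66 to 14.67 in the knockout arrays. The BioB spike-in control read 10.87 to 11.47 in all wild type arrays and 10.17 to 10.48 in all knockout arrays of both tissues. This control thus split by genotype, and an effect of array processing cannot be told apart from one of genotype. In nerve, Xist, expressed in female cells, was high in replicate 2 of wild type and replicate 3 of knockout. In motoneurons it was low only in knockout replicate 2. The motoneuron markers Slc18a3 and Nefl were far higher in captured motoneurons, whereas the probe set for Chat, the acetylcholine-synthesizing enzyme that defines these cells, read only 4.19 to 5.30 there. Oligodendrocyte and astrocyte markers were also present in the captured samples, with mean levels of 11.22 to 12 and 10.10 to 10.85.

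Promoters of genes for the respiratory chain are known to hold sites for the nuclear respiratory factor NRF1, for ETS family factors such as GABP (NRF2), and for YY1. RefSeq promoter windows of 300 bases on GRCm38.p6, 250 before and 50 after the start, were held for 29 of the 37 genes, in 32 windows. Of these windows, 9 (28.1%) held the NRF1 motif on either strand, against 4.6% of all 32851 windows of that length. The ETS letters CCGGAAG were found in 12 of 32 (37.5%, against 8.86% of all windows), and the YY1 letters AAGATGG in 4 of 32 (12.5%, against 6.34%). No matches of the 3 motifs overlapped each other in these windows. In all, 20 of the 29 genes held at least 1 match and 9 held none. Sdha had the most NRF1 matches, 3, beginning 98, 55 and 10 bases before the start. The last 170 bases before the start are printed for the genes with 2 kinds of match and for those with the smallest p in motoneurons that have a window. Capitals mark the matches, on either strand, and each sequence runs 5′ to 3′ on the strand of the gene. On the minus strand these are Cox6a1 at chr5:115348959-115349128, Sdhd at chr9:50603850-50604019, Atp5h at chr11:115419920-115420089, Atp5j at chr16:84834977-84835146, Atp5k at chr5:108434400-108434569, Uqcrh at chr4:116075071-116075240 and Atp5e at chr2:174464102-174464271, and on the plus strand Sdhb at chr4:140961101-140961270.
Cox6a1: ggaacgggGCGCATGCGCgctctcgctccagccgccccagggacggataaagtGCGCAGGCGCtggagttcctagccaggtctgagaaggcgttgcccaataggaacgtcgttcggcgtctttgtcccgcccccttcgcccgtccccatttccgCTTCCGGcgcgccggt
Sdhd: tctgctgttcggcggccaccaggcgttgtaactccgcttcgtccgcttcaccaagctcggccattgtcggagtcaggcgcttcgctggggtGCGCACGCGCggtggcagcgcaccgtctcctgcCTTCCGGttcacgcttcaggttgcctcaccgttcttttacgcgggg
Atp5h: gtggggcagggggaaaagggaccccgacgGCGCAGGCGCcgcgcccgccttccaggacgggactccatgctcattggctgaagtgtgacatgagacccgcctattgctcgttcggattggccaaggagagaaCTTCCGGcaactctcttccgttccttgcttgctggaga
Atp5j: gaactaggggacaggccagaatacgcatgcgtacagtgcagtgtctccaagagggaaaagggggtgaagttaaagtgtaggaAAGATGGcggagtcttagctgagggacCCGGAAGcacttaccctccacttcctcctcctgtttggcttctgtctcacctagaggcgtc
Atp5k: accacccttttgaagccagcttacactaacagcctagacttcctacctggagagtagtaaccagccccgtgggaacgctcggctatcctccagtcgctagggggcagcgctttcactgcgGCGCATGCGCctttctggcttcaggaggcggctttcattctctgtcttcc
Uqcrh: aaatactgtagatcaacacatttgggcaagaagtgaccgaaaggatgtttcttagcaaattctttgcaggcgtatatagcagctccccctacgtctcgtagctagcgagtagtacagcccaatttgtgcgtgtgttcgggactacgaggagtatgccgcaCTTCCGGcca
Atp5e: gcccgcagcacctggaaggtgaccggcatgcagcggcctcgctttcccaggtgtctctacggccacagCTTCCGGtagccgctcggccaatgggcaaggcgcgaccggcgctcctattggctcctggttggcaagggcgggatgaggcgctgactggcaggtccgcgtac
Sdhb: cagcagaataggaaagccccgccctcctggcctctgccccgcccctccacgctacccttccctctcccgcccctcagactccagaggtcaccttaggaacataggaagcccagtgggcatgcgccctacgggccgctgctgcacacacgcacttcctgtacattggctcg
Cox6a1 shows 2 NRF1 matches and, 16 bases before its start, 1 ETS match. Sdhd and Atp5h hold an NRF1 and an ETS match each, and Atp5j a YY1 and an ETS match. Atp5k shows its NRF1 match, and its ETS match lies past the start. Uqcrh and Atp5e hold a single ETS match, and that of Sdhb also lies past the start, outside the printed stretch. A match is only a run of letters, and no binding was measured here. No window was held for Uqcrb, Uqcrq, Uqcrc2, Cyc1, Sdhc, Cox4i1, Cox6c or Atp5a1.

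The first comparison asked whether these transcripts differ between knockout and wild type nerve. They did not pass any test there. No gene of the 37 was called at an adjusted p under 0.05 by limma, as none of all 45037 probe sets was (0%). No gene had an unadjusted p under 0.05, against 2.31% of all probe sets, and none had groups that did not overlap, against 7.26%. The differences, knockout minus wild type on the log2 scale, ran from -0.09 for Uqcrb to 0.15 for Uqcrc1 with a median of -0.014, and 15 were above 0 and 22 below. The median over all probe sets was 0.010. After each array was centred on its own median, 5 were above 0 and 32 below, with a median of -0.055 against -0.031 for all probe sets, so the signs in nerve turned with the scaling.

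By complex, the median difference in nerve was -0.0099 for complex II, -0.024 for III, 0.0014 for IV and -0.013 for V, and Cycs differed by -0.031. In complex III, Uqcrc1, a core protein that faces the matrix, read 12.25, 12.39 and 12.02 in wild type nerve and 12.35, 12.65 and 12.10 in knockout nerve. The groups overlapped, and the difference of 0.15 had a 95% interval from -0.23 to 0.52. Uqcrb, the ubiquinone-binding protein, read 14.36, 14.48 and 14.44 in wild type and 14.21, 14.46 and 14.33 in knockout. Its interval ran from -0.27 to 0.08. Uqcrq, a small subunit that packs against cytochrome b, differed by 0.14 (interval -0.20 to 0.48). In complex IV, Cox8a, the ubiquitous form of the smallest subunit, differed by 0.12 (interval -0.10 to 0.34). In complex V, Atp5g1, 1 of 3 genes for the same c subunit of the membrane ring, differed by -0.059 and Atp5f1, the b subunit of the peripheral stalk, by -0.054. All 6 had an adjusted p of 1 by limma. Apart from that of Cox7c, the widest interval was that of Uqcrfs1, from -0.46 to 0.33.

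What did vary in nerve was the array, across genotypes. In the replicate 3 arrays, 35 of 37 genes (wild type) and 34 (knockout) were below their nerve mean, while 35 were above it in knockout replicate 2, 33 in wild type replicate 1 and 28 in wild type replicate 2. In knockout replicate 1, 11 were above and 26 below. Wild type replicate 3 held the lowest of the 6 values for 17 genes and knockout replicate 3 for 12, and knockout replicate 2 held the highest for 16. Sdhb, the iron-sulfur subunit of complex II, read 13.70, 13.85 and 13.46 in wild type nerve and 13.65, 13.88 and 13.40 in knockout nerve. Cyc1, the heme subunit cytochrome c1 of complex III, followed the same order with 12.89, 13.06 and 12.58 in wild type and 12.77, 13.05 and 12.57 in knockout. In both genes replicate 2 was highest and replicate 3 lowest in each genotype, and the genotype groups overlapped. Cox6a1 went the other way in wild type, with 14.55, 14.68 and 14.79, and read 14.57, 14.77 and 14.75 in knockout. The mean over the 37 genes spanned 13.88 to 14.09, so the shifts were small and shared.

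**Figure D1:**
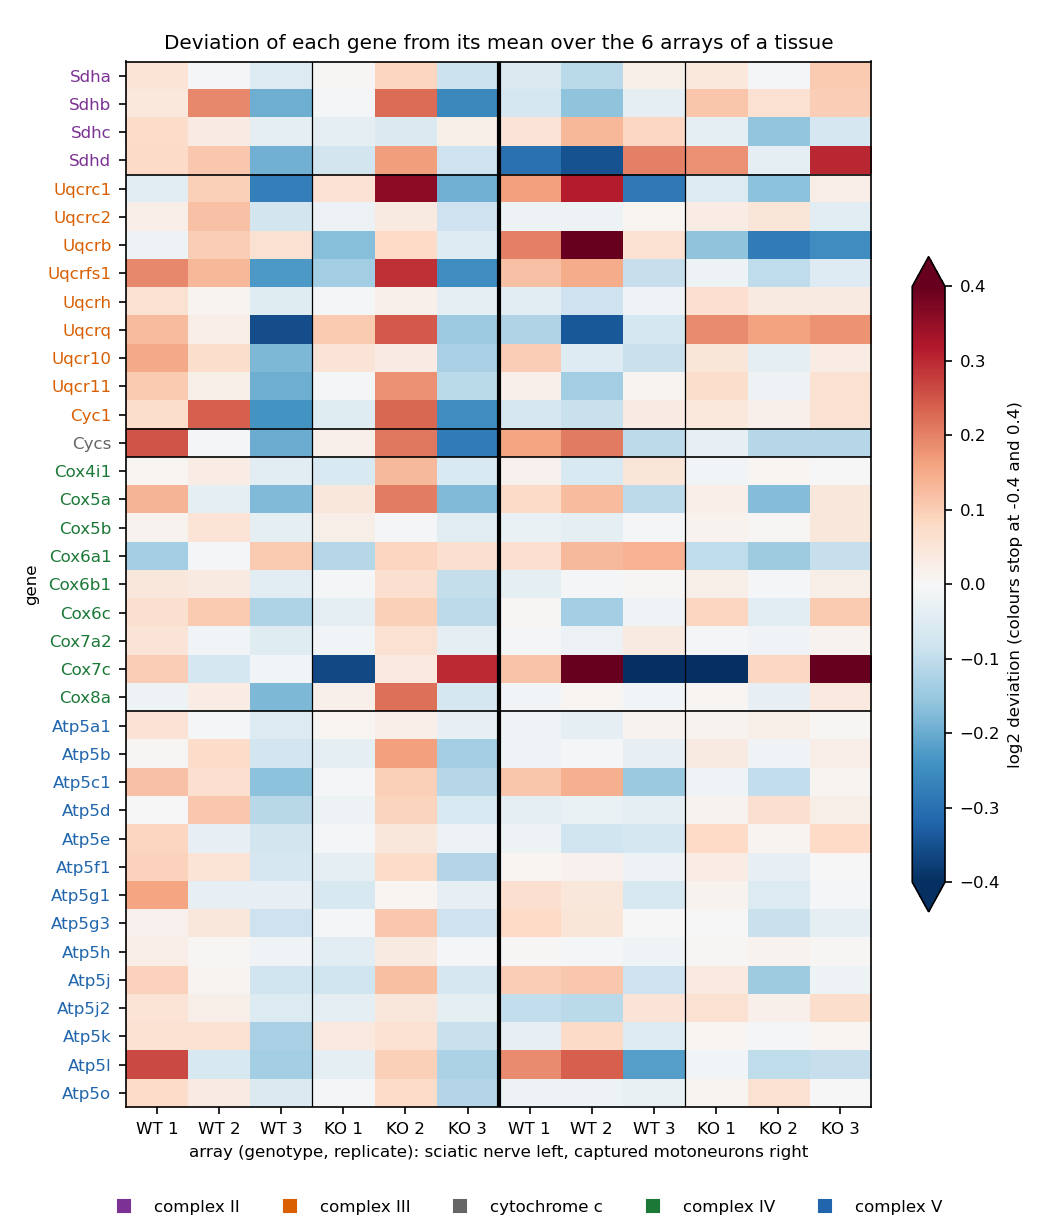
Heat map of the log2 deviation of each of the 37 genes (rows, by complex) from its mean over the 6 arrays of a tissue (columns, sciatic nerve left and captured motoneurons right, WT wild type, KO knockout), with colours that stop at -0.4 and 0.4. In nerve, whole columns are blue for replicate 3 of both genotypes (35 and 34 genes below the mean) and red for knockout replicate 2 (35 above), and in motoneurons the columns are mixed.

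The shared shift also held for complex I, whose 33 measured genes had a mean of 13.54 and 13.55 in the replicate 3 arrays against 13.63 to 13.73 in the others. Some lists of marker genes for other cells moved with it and others did not. Of 5 adipocyte markers 3 were measured, with a mean of 13.18, 13.56 and 12.44 in wild type nerve and 13.11, 13.68 and 12.39 in knockout nerve, so replicate 3 was lowest in each genotype there too. All 15 skeletal muscle markers were measured, with a mean of 13.62, 8.38 and 12.22 in wild type and 10.82, 9.72 and 10.52 in knockout, a different order. The 6 macrophage markers averaged 12.38 and 12.48 in the replicate 3 arrays and 12.53 to 12.98 in the others, and the 6 endothelial markers 11.27 in both replicate 3 arrays and 11.36 to 11.53 in the others. Both lists were thus lowest in replicate 3 of each genotype. The 5 measured markers of myelinating Schwann cells went the other way, with 14.33 and 14.38 in the replicate 3 arrays against 14.13 to 14.24. None of these lists was near 0 in any nerve array, and their part in the shared shift of these genes was not tested. In a lysate or a bulk sample, fewer cells of a type and less RNA per cell cannot be told apart.

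Cox6a2 and Cox8b, isoforms of complex IV subunits known from particular tissues, spanned a wider range over the nerve arrays than any of the 37 genes. Other such isoforms did not, among them Cox6b2, with 11.40 to 11.77. Cox6a2, the heart and skeletal muscle form of subunit 6a, read 12.49, 8.35 and 11.53 in wild type nerve and 9.49, 8.94 and 10.12 in knockout nerve. It was highest and lowest in the same nerve arrays as the muscle list. Within knockout, the list peaked in replicate 1, whereas Cox6a2 peaked in replicate 3. Its difference of -1.27 (SE 0.97, adjusted p = 1 by limma) lay within the spread of the arrays. Cox8b, a subunit 8 form of muscle and brown fat, read 12.84, 12.71 and 11.63 in wild type and 12.29, 12.34 and 11.15 in knockout, lowest in replicate 3 of each genotype. Cox6a1, the ubiquitous partner of Cox6a2, spanned only 14.55 to 14.79 over the same arrays.

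**Figure D2:**
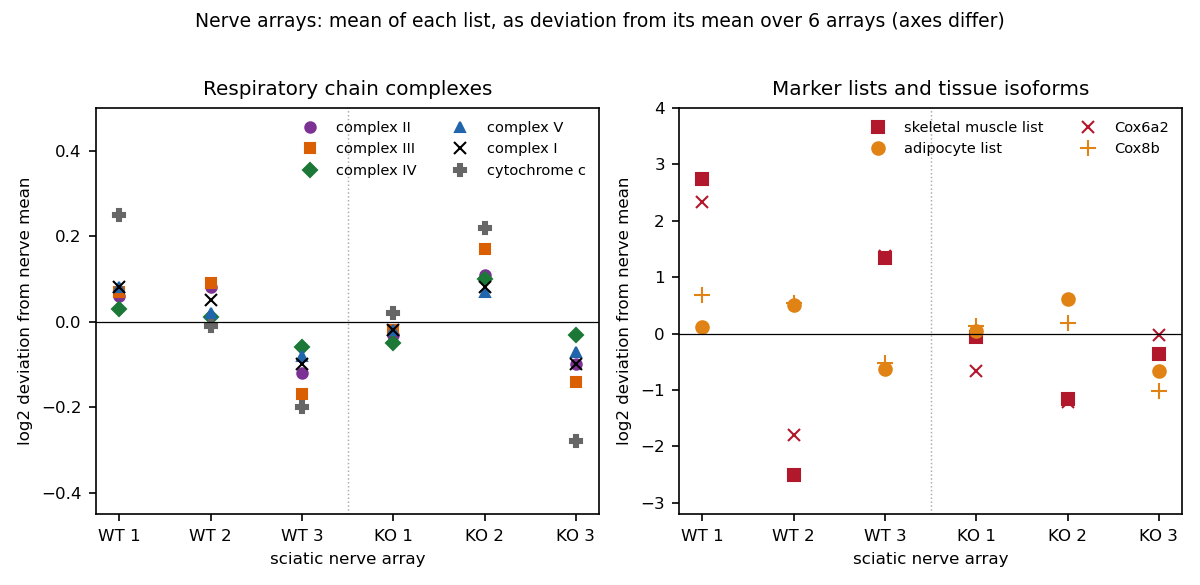
Log2 deviation from the nerve mean for each sciatic nerve array (WT wild type, KO knockout), for the mean of each respiratory complex (left) and for the muscle and adipocyte marker lists, Cox6a2 and Cox8b (right), on axes of different range. The complexes are below 0 in replicate 3 of both genotypes, as is the adipocyte list. Cox6a2 and the muscle list both peak in wild type replicate 1 and are lowest in wild type replicate 2.

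The second comparison asked the same of captured motoneurons. Again no gene of the 37 was called by limma (0% of all 45037 probe sets). 8 genes (21.6%) had an unadjusted p under 0.05, against 17% of all probe sets. The groups did not overlap for 11 genes (29.7%), against 22.5% of all probe sets. Of these, 8 were higher in knockout (Sdhb, Uqcrh, Uqcrq, Cox5b, Atp5d, Atp5e, Atp5h and Atp5o), where 12.7% of all probe sets were, and 3 were lower (Sdhc, Uqcrb and Cox6a1), against 9.77%. The 8 higher genes were 21.6% of the 37, above their background, and the share of the 3 lower was near its own. These shares were not tested and are not read as a result about these genes. The median difference over the 37 genes was 0.012, with 21 above 0 and 16 below, beside a median of 0.039 over all probe sets. After centring it was -0.013, with 16 above 0 and 21 below, beside 0.014.

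Complex II subunits differed in sign among themselves, with a median of 0.14. Sdhb read 13.84, 13.75 and 13.87 in wild type and 14.02, 13.97 and 14.01 in knockout motoneurons. All knockout arrays lay above all wild type arrays, and the difference was 0.17 (SE 0.046, adjusted p = 0.140 by limma). Sdhc, a membrane anchor that binds heme and ubiquinone, read 12.47, 12.55 and 12.50 in wild type and 12.38, 12.26 and 12.35 in knockout, without overlap in the other direction. It differed by -0.18 (SE 0.068, adjusted p = 0.256), and its other probe set by -0.34. Sdhd, the second anchor, differed by 0.30 (SE 0.16), but wild type replicate 3 read 12.60, within the knockout range of 12.36 to 12.70, while replicates 1 and 2 read 12.10 and 12.05. Its other probe set differed by -0.067. Sdha, the flavoprotein, differed by 0.10 with an interval from -0.02 to 0.21.

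Complex III held both the most negative and the most positive difference of all 37 genes. Uqcrb (gene at chr13:66900576-66905350) read 14.19, 14.42 and 14.05 in wild type motoneurons and 13.83, 13.71 and 13.74 in knockout motoneurons. Every knockout array was below every wild type array, at 13.76 ± 0.0621 against 14.22 ± 0.189 (SD, n = 3 each). The difference was -0.46 (SE 0.090), a fold of 0.726 (adjusted p = 0.11 by limma), and its other probe set differed by -0.18 (adjusted p = 0.418). Uqcrq read 13.19, 12.97 and 13.24 in wild type and 13.50, 13.47 and 13.49 in knockout. It was higher in every knockout array, by 0.36 (SE 0.075), a fold of 1.28 (adjusted p = 0.118 by limma). Its 3 other probe sets were dim, with motoneuron means of 3.9 to 5.25, and differed in sign. Uqcrh, the acidic hinge protein that helps cytochrome c dock, read 14.62, 14.58 and 14.65 in wild type and 14.73, 14.70 and 14.70 in knockout, a difference of 0.096 without overlap (adjusted p = 0.198 by limma). Its other probe set differed by 0.035 with overlap. The other 6 subunits overlapped between genotypes, from -0.13 for Uqcrc1 to 0.083 for Cyc1.

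Cycs, the electron carrier between complexes III and IV, had several bright probe sets that differed by unequal amounts. By the brightest it read 13.69, 13.74 and 13.43 in wild type and 13.50, 13.42 and 13.42 in knockout, with replicate 3 of wild type inside the knockout range. That difference was -0.17 (adjusted p = 0.343 by limma). A second probe set differed by -0.25 (adjusted p = 0.152) and another by -0.74 (adjusted p = 0.0904), none past the threshold. A dimmer one with a motoneuron mean of 8.36 differed by 0.12.

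In complex IV, 4 differences were above 0 and 5 below, with a median of -0.0019. Cox6a1 encodes the ubiquitous form of subunit 6a, and its mutation is known as another cause of recessive Charcot-Marie-Tooth neuropathy. It read 14.48, 14.54 and 14.55 in wild type motoneurons and 14.31, 14.27 and 14.32 in knockout motoneurons. The groups were far apart for their spread, at 14.52 ± 0.0384 and 14.30 ± 0.0253 (SD, n = 3 each). The difference of -0.22 (SE 0.036), a fold of 0.857, had the smallest p of the 37 genes in this comparison (adjusted p = 0.102 by limma). The other probe set of Cox6a1, at a motoneuron mean of 13.78, differed by 0.034 (adjusted p = 0.724), so the lower values were seen in 1 of its 2 probe sets. Cox5a, a subunit on the matrix side, differed by -0.069 by its brightest probe set and by -0.30 (adjusted p = 0.11) and -0.16 by the others. Cox5b differed by 0.045 without overlap. The remaining subunits, Cox4i1, Cox6b1, Cox6c, Cox7a2 and Cox8a, lay between -0.0057 and 0.095. The interval for Cox7c, the dim one, ran from -1.05 to 0.97 and says little.

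In complex V, 8 differences were above 0 and 6 below, all between -0.14 for Atp5l and 0.11 for Atp5e. Atp5e, the epsilon subunit of the central stalk, read 13.95, 13.89 and 13.90 in wild type and 14.05, 13.98 and 14.05 in knockout, higher in every knockout array by 0.11 (SE 0.042, adjusted p = 0.239 by limma). Atp5d, the delta subunit beside it, differed by 0.065 without overlap. Atp5o, the oligomycin sensitivity protein, and Atp5h, a stalk subunit, also did not overlap, at 0.046 and 0.012. The other probe set of Atp5o differed by -0.073 with overlap, and those of Atp5h and Atp5d by 0.06 and 0.061 without. That of Atp5f1 differed by -0.17 without overlap, against -0.0021 for the chosen one. The catalytic Atp5b and its partner Atp5a1 differed by 0.036 and 0.029, with intervals from -0.04 to 0.11 and from -0.04 to 0.10. Other probe sets of Atp5a1 differed by -0.053 without overlap and by 0.084 with overlap. Atp5g3, a second c subunit gene, differed by -0.089 (adjusted p = 0.284), with groups that overlapped.

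**Figure D3:**
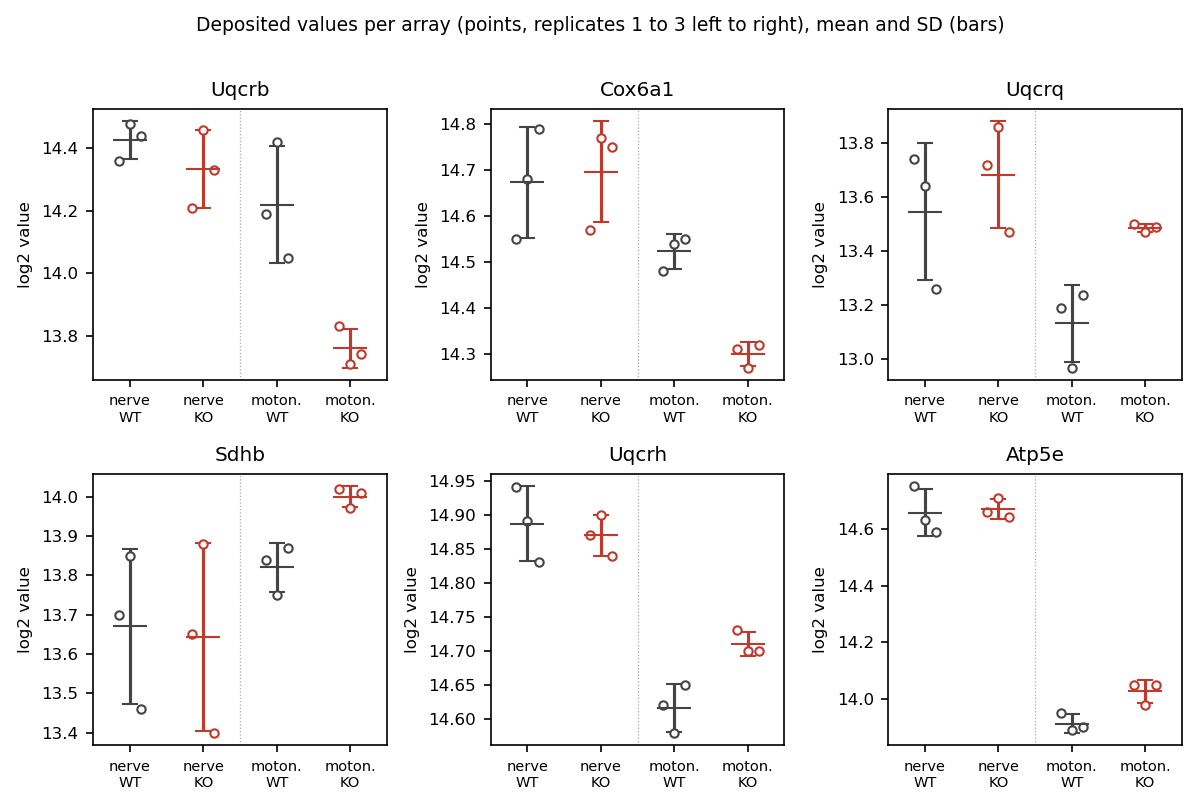
Deposited log2 values of the 6 genes with the smallest p in motoneurons, per array (open points), with group mean and SD (bars), for wild type (WT, grey) and knockout (KO, red) in nerve and captured motoneurons (moton.); axes differ between genes and do not start at 0. In motoneurons Uqcrb (13.71 to 13.83 in knockout against 14.05 to 14.42) and Cox6a1 are lower in every knockout array and Uqcrq, Sdhb, Uqcrh and Atp5e higher, while in nerve every gene overlaps.

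Without wild type replicate 3, 11 of the 37 genes were called by limma. 4 rose (Sdhb by 0.20, Sdhd by 0.47, Uqcrq by 0.41 and Atp5j2 by 0.15), where 4.68% of all probe sets were called higher, and 7 fell, where 5.64% were called lower. The 7 were Uqcrb with -0.55 (adjusted p = 0.00717), Uqcrc1 with -0.30, Uqcrfs1 with -0.19, Cycs with -0.27, Cox6a1 with -0.21, Atp5c1 with -0.17 and Atp5l with -0.28. The direction of these 11 genes was the same with all arrays. In the deposited values of Uqcrc1, the left-out array read 13.07 beside 13.52 and 13.67 in the other wild type arrays and 13.19 to 13.38 in knockout. With array weights 4 genes were called (Uqcrb, Cox6a1, Uqcrq and Sdhb), where 6.5% of all probe sets were. In a fit over all 12 arrays Uqcrb alone was called (adjusted p = 0.0324), where 1.84% of all probe sets were. Both counts were near these backgrounds. The fit without that array rests on 2 wild type and 3 knockout arrays. Whether the array or the other wild type arrays are unusual was not tested.

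Marker lists of neighbouring cells mostly overlapped between the genotypes in the same arrays, and the endothelial list did not. The 6 endothelial markers averaged 6.63 to 6.71 in wild type and 6.31 to 6.43 in knockout motoneurons, and all 6 differences were below 0. These levels are near the motoneuron array medians of 6.53 to 6.59. The 7 astrocyte markers averaged 10.47 to 10.85 and 10.10 to 10.48, with 4 differences below 0, without overlap, and 3 above 0. The 6 oligodendrocyte markers averaged 11.41 to 12 and 11.22 to 11.80, and the 6 markers of microglia and macrophages 7.18 to 7.96 and 7.50 to 7.84. The dimmest marker was Cdh5 of endothelium, with a mean of 4.55, and the part of these cells in the differences of the respiratory genes was not tested.

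**Figure D4:**
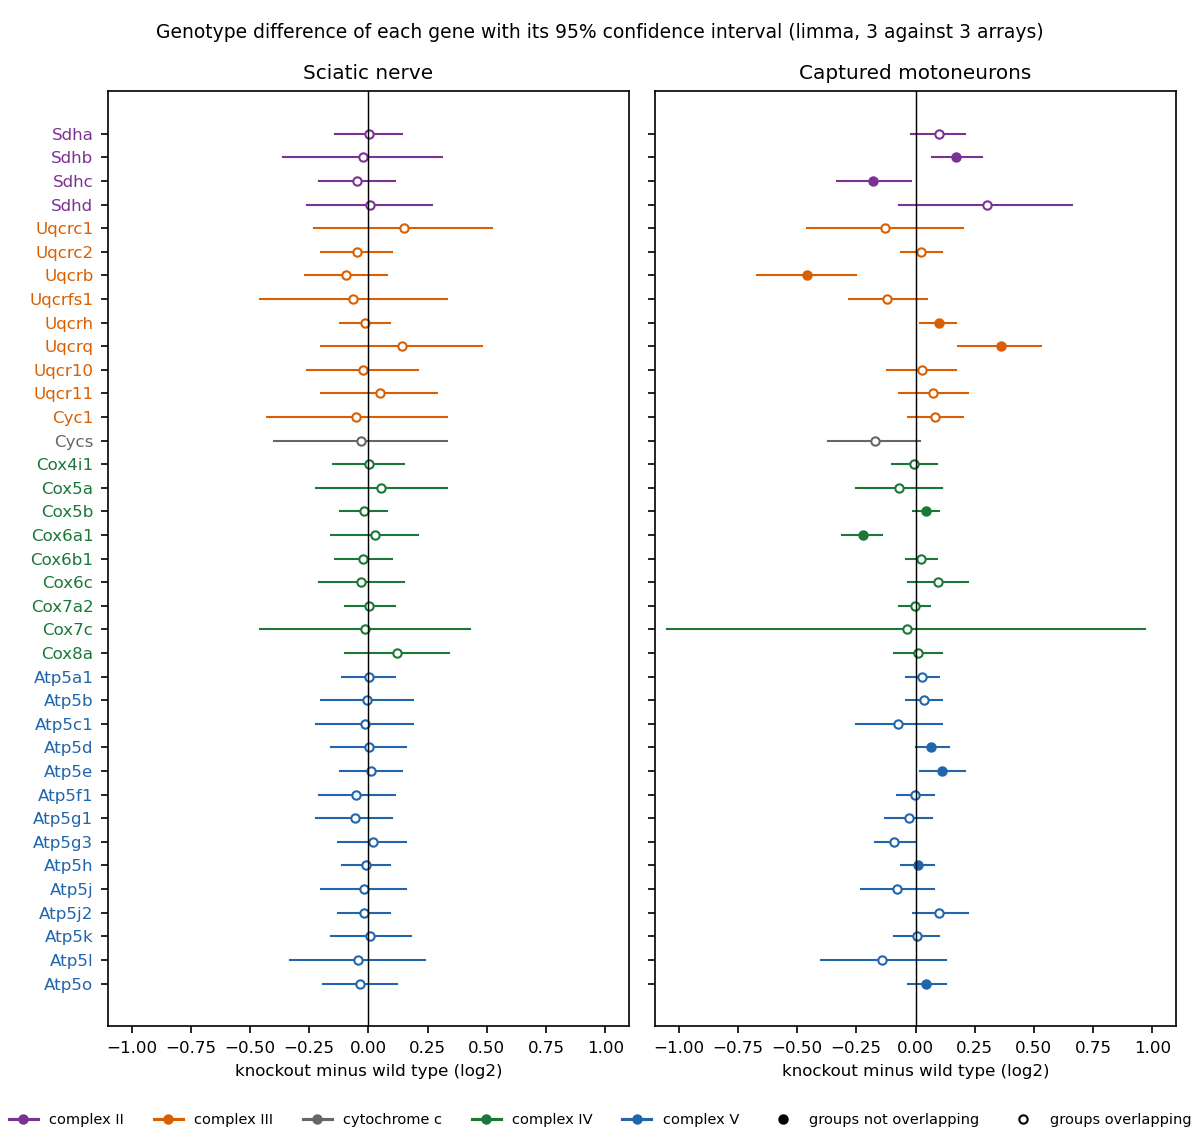
Knockout minus wild type difference on the log2 scale for each of the 37 genes, with its 95% confidence interval from limma (3 against 3 arrays), in sciatic nerve (left) and captured motoneurons (right); filled points are genes whose groups do not overlap. No point is filled in nerve and 11 are filled in motoneurons, with Uqcrb at -0.46 and Uqcrq at 0.36 as the extremes.

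Whether the genotype effect differs between the tissues was tested as an interaction over all 12 arrays. No gene was called (0% of all probe sets), and 2 of 37 (5.41%) had an unadjusted p under 0.05, against 7.54% of all probe sets. These were Uqcrb, whose effect in motoneurons was lower than in nerve by -0.37 (SE 0.12, adjusted p = 0.604 by limma), and Cox6a1, with -0.25 (SE 0.090, adjusted p = 0.629). Next were Uqcrh with 0.11, Atp5j2 with 0.12, Atp5e with 0.10 and Atp5g3 with -0.11. No gene passed the test of a difference between the tissues.

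Genes that assemble, regulate or accompany these complexes came from lists that were set by function. None of the lists had a called gene in either genotype comparison. The counts that follow stand beside 17% of all probe sets with an unadjusted p under 0.05 in motoneurons, and 22.5% whose groups did not overlap (12.7% higher in knockout). In motoneurons, 8 of 33 complex I genes had an unadjusted p under 0.05, and the median over the 33 was 0.049. Of 4 assembly factors of complex II, Sdhaf3 read 11.65, 11.60 and 10.88 in wild type and 10.67, 10.66 and 10.79 in knockout (difference -0.67, adjusted p = 0.177 by limma), and wild type replicate 3 was close to the knockout arrays. Of 6 factors of complex III, 3 did not overlap and all were higher in knockout, among them Bcs1l, which inserts the Rieske protein Uqcrfs1, by 0.50 (adjusted p = 0.176). Of 20 measured factors of complex IV, 5 had a p under 0.05. Cmc2 differed by 0.25 (SE 0.054, adjusted p = 0.120) and Cox15, an enzyme of heme a synthesis, by -0.53 (SE 0.15, adjusted p = 0.160). None of 4 factors of complex V had one. Among 13 isoforms and regulators, Atp5g2, another c subunit gene, read 12.48, 12.28 and 12.49 in wild type and 12.74, 12.86 and 12.74 in knockout, higher by 0.36 (SE 0.080, adjusted p = 0.120). Of 8 regulators of transcription, Yy1 read 11.57, 11.83 and 11.45 in wild type and 11.11, 10.86 and 11.23 in knockout (difference -0.55, adjusted p = 0.136). Nrf1 differed by 0.31 with overlap.

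The third comparison set motoneurons against nerve, in wild type and separately in knockout, on arrays that the other genotype does not share. Because the tissues were deposited on different scales, all 12 arrays were first quantile normalized together. RNA of motoneurons and nerve was also extracted with different column kits, so tissue and kit cannot be told apart. As deposited, the beta-actin controls in nerve read 14.62 to 14.70 at the 3′ end and 13.45 to 13.98 at the 5′ end. In motoneurons they read 14.15 to 14.26 and 12.19 to 12.73. The 5′ control thus lay further below the 3′ control in motoneurons, and its bearing on the tissue differences was not tested. On the common scale, 27 of 37 genes were higher in wild type motoneurons, where 39.6% of all probe sets were called higher, and 1 was lower, where 32.9% were. In knockout, 30 were higher (background 40.4%) and 2 lower (33.6%). The median difference was 0.30 in wild type and 0.35 in knockout, and 0.15 and 0.16 over all probe sets. The sign of this shift depends on the scale, while the median of the 37 genes was above that of all probe sets on the quantile and deposited scales. Centring moves all probe sets of an array by 1 amount, so it only repeats the gap of the deposited values. Most of these genes lie near the top of the scale, and they were not compared with probe sets of like brightness. On the values as deposited, 6 genes were higher and 19 lower in wild type with a median of -0.16 (all probe sets -1.09). In knockout these were 7 and 17, with a median of -0.13 (all probe sets -1.04). Of all probe sets, 14.3% and 67.9% were called higher and lower there in wild type, and 15.2% and 67.5% in knockout. With arrays centred on their medians, 36 were higher and none lower in each genotype, with medians of 1.60 and 1.64 (all probe sets 0.67 and 0.74). Of all probe sets, 54.9% were then called higher and 24.7% lower in wild type, and 56.6% and 24.8% in knockout.

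The order of the genes was nearly the same on the quantile and the deposited scale. The differences on the quantile scale and on the deposited scale had a Spearman rho of 0.99 across the 37 genes in wild type. Quantile normalization keeps the order of values within each array, and most of these genes lie in a narrow bright range. A like order of genes or complexes on both scales is therefore largely given by construction. The wild type and knockout differences had a Pearson r of 0.95 and a Spearman rho of 0.92 across the genes, which share probes but no arrays and are not independent replicates. By complex, the wild type median was -0.012 for complex II (1 of 4 higher), 0.24 for III (5 of 9), 0.30 for IV (8 of 9) and 0.39 for V (12 of 14), beside 0.51 for 33 complex I genes (25 higher, 2 lower). The same order of complexes, from II to V, was found in wild type on the deposited scale (medians -0.50, -0.21, -0.16 and -0.052). Centring moves all genes by 1 amount. The order after it (1.27, 1.55, 1.60 and 1.71) is therefore that of the deposited scale by construction. In knockout, complex II was again lowest, with a median of 0.14 on the quantile scale, but III, IV and V were nearly equal at 0.35, 0.34 and 0.36. No test was made over complexes. These medians and counts rest on 1 probe set per gene. Other bright probe sets gave other values in wild type on the quantile scale. That of Sdha was called higher by 0.37 (adjusted p = 0.00338 by limma) and that of Sdhd by 0.25 (adjusted p = 0.0484). Those of Uqcr10 differed by 1.18 and 1.57, against 0.18 for the chosen one. That of Cox6a1 differed by 0.043 without a call, against 0.32. Dim probe sets of Sdha were lower, by -2.47 and -1.01.

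At the upper end stood Uqcrc1, with 11.91, 12.07 and 11.67 in wild type nerve and 13.73, 13.85 and 13.31 in wild type motoneurons on the quantile scale. The groups were well apart, and the difference of 1.75 (SE 0.16, adjusted p = 3.81e-05 by limma), a fold of 3.36, was matched by 1.51 (SE 0.14) in knockout. Cyc1 followed with 1.11 (SE 0.13) in wild type and 1.27 in knockout. Atp5g1 read 13.88, 13.66 and 13.65 in nerve and 14.77, 14.75 and 14.63 in motoneurons of wild type, higher by 0.98 (SE 0.077, adjusted p = 1.53e-05), and by 1.03 in knockout. Atp5g3, which encodes the same mature c subunit, was higher by 0.47 in wild type on the quantile scale and differed by -0.01 on the deposited one. Atp5g2, the third such gene, differed by -0.41 on the quantile scale, and centring turned it to 0.79. Cox5a and Cycs were higher by 0.92 and 0.89. Each of these 5 was also called higher on the deposited scale in both genotypes, with Uqcrc1 at 1.20 and Cycs at 0.40 in wild type, except Cycs in knockout (0.26, adjusted p = 0.055).

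At the lower end, Atp5e read 14.52, 14.40 and 14.38 in wild type nerve and 14.15, 14.08 and 14.09 in wild type motoneurons, lower by -0.32 (SE 0.057, adjusted p = 0.00124 by limma) and in knockout by -0.21. Centring alone turned it, to 1.01 and 1.13. Cox7c differed by -0.70 in each genotype without passing the test (adjusted p = 0.0568 and 0.0902). On the deposited scale it was called lower in both, by -2.09 and -2.11, and after centring it differed by -0.33 and -0.34 without a call. By the chosen probe sets, Sdhd, Sdha and Sdhc of complex II differed by -0.094, -0.033 and 0.0092 in wild type on the quantile scale, none called there. Of the complex II genes only Sdhb was then called higher on that scale, by 0.60 (SE 0.11, adjusted p = 0.00156 by limma) and by 0.81 in knockout. The other scales gave calls in opposite directions. In wild type Sdhd, Sdha and Sdhc were called lower on the deposited scale, by -0.68, -0.42 and -0.57, and higher after centring, by 1.08, 1.34 and 1.19. On the deposited scale Sdhb differed by 0.16 in wild type (adjusted p = 0.184). Uqcrb was called lower in knockout, by -0.16 (adjusted p = 0.0464), and differed by 0.20 in wild type (adjusted p = 0.115). Its sign also turned with centring, to 1.20 in knockout.

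**Figure D5:**
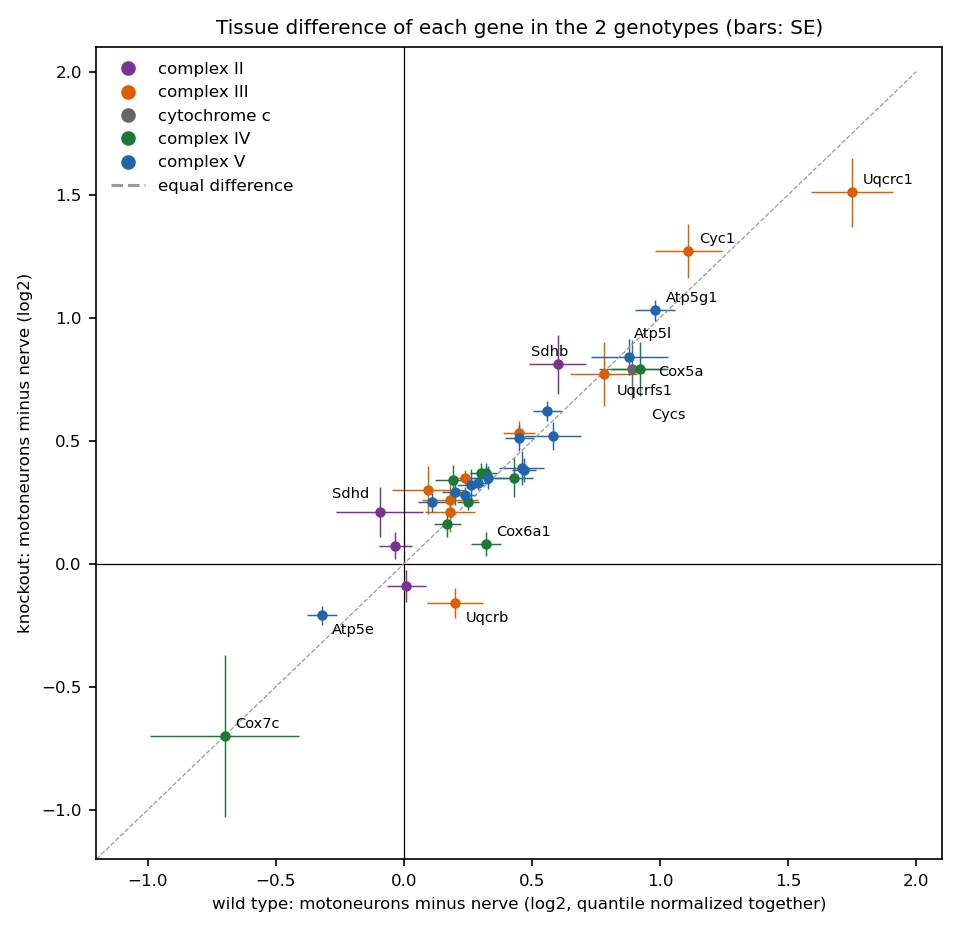
Motoneuron minus nerve difference on the log2 scale after joint quantile normalization, in wild type (x axis) and knockout (y axis), for each of the 37 genes coloured by complex, with SE bars; the dashed line marks equal differences. Most genes lie near the line between 0 and 1, with Uqcrc1 highest (1.75 and 1.51), Cox7c and Atp5e lowest, and Uqcrb below the line.

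Of the isoforms known from other tissues, 3 were lower in motoneurons on every scale tried. In wild type, Cox6b2, a form of subunit 6b known from testis, read 11.40 to 11.77 in nerve and 6.49 to 6.55 in motoneurons as deposited. On the quantile scale it was lower by -3.78 (SE 0.17, adjusted p = 8.13e-07 by limma). Cox8b differed by -3.44 and Cox6a2 by -2.81 (SE 1.05, adjusted p = 0.0417 by limma). The wild type groups of Cox6a2 overlapped on that scale, with 12.16, 7.49 and 11.13 in nerve and 7.67, 7.36 and 7.33 in motoneurons. Cox6b2, Cox8b and Cox6a2 were called lower on the deposited scale and after centring as well, in both genotypes. Cox7a1, the muscle form of subunit 7a, differed by -0.83 on the quantile scale and -0.09 after centring. Cox7a2l, which links complexes III and IV, differed by -0.72, and centring turned it to 0.61. Cox7b2 was higher by 3.0, and it was higher on the other scales too. It was dim in both tissues, with deposited values of 2.66 to 2.78 in nerve and 4.16 to 5.39 in motoneurons. Cox4i2, the form of subunit 4 known from lung, differed by -0.12 and was not called. In knockout, Cox6b2 differed by -3.78, Cox8b by -2.35, Cox6a2 by -1.60 and Cox7b2 by 2.75. The muscle list, highest and lowest in the same nerve arrays as Cox6a2, averaged 5.85 to 6.2 in motoneurons.

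Of 8 regulators of transcription, 5 were called higher and 1 lower in wild type motoneurons on the quantile scale. Ppargc1b was higher by 2.52 and Ppargc1a by 1.90, and both encode coactivators of mitochondrial biogenesis. Esrra, a nuclear receptor they work with, was higher by 2.12, and Tfam, the packaging and transcription factor of mitochondrial DNA, by 1.57. These 4 were higher on the deposited scale too, by 0.81 for Esrra to 1.19 for Ppargc1b. Nrf1 differed by 0.51 on the quantile scale and by -1.02 on the deposited one, and Yy1 by -0.84 and, after centring, by 0.30. Of the assembly factors, 3 of 4 for complex II, 3 of 6 for III, 12 of 20 for IV and 3 of 4 for V were called higher on the quantile scale. The count for complex IV turned on the deposited scale, to 6 higher and 10 lower. Atpaf1, a chaperone of the ATP synthase beta subunit, was higher by 2.46 and Sdhaf3 by 2.91, and both were higher on all 3 scales.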

How the data were processed

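The 12 arrays hold 3 biological replicates for each tissue and genotype. The deposited values are log2 intensities per probe set, a scale read from the values. They were made with Affymetrix Expression Console 1.1, per the submitters' processing notes. How probes were summarized, and with which background correction, was not given in the sources used here. Per the labels' protocols, the starting amount was 20 ng of RNA. There is no depth to an array, so precision depends on how many there are.

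Of 45101 probe sets, 64 controls were left out and 45037 tested. The annotation gave 34945 exactly 1 symbol, 932 several and 9160 no symbol. Symbols were updated through RefSeq (GRCm38.p6). Promoter sequences are from RefSeq on the same build.

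Genotype was fitted within each tissue on deposited values with limma 3.58.1 (lmFit and eBayes with a mean trend) in R 4.3.3, two-sided, with Benjamini-Hochberg adjustment over all 45037 probe sets and a threshold of 0.05. The difference of genotype effects was an interaction over 12 arrays. Tissues were compared within a genotype after joint quantile normalization. Intervals are 95% confidence intervals from limma. An exact permutation test of 3 against 3 arrays cannot give a p below 0.1. On data simulated with known changes, log2 changes of 1 were recovered for 43.3% of probe sets in nerve and 26.9% in motoneurons, and changes of 0.5 for 0% and 4.5%. Recovery of changes of 1 was 16.4% for the interaction, and 31.3% and 29.9% for the tissues in wild type and knockout. Each size of change was given to only 66 or 67 of the 45037 probe sets. Between the real wild type tissues, 39.6% were called higher and 32.9% lower. The genes described here also had a median SD of 0.0349 to 0.1 within groups, against 0.181 to 0.208 for all probe sets. These rates therefore do not give the share of such changes that would be found in these genes.

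The genes and lists were chosen with earlier results of these data known. Named genes are the 6 with the smallest p in each genotype comparison, the 5 highest and 5 lowest tissue differences in wild type, set isoforms, and up to 3 per pathway list by p in motoneurons. Other genes were named after their values were seen, to describe each complex. Deviations of same-numbered wild type and knockout arrays correlated at 0.026, 0.305 and 0.216 in nerve. In motoneurons the values were 0.09, -0.064 and -0.079. Same-numbered arrays did not deviate together in every pair, so the main fits have no replicate block. Spread shared by same-numbered nerve arrays therefore stays in the error of the nerve fit. Figures were drawn with matplotlib 3.10.9.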

Additional observations from a re-analysis of the deposited data

How the results depend on the processing

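In nerve and in the interaction, 0 of the 37 genes were called under any alternative tried, each array left out included. In motoneurons 0 were called in the main comparison, 1 with all 12 arrays in 1 fit (1.84% of all probe sets), 4 with array weights (6.5%), and 0 to 11 with 1 array left out, the 11 without wild type replicate 3; without any other array the count was 0. With the replicate number as a block, 0 were called in each genotype comparison and in the interaction, and 27 and 31 between tissues in wild type and knockout, where 28 and 32 were called without it. Leaving out 1 array gave 26 to 29 and 29 to 32. The tissue counts turned from mostly higher to mostly lower on the values as deposited, to 25 and 24. Centring turned Atp5e to 1.01 and 1.13 in the tissue comparisons (wild type, then knockout), and in wild type Sdhd to 1.08 and Sdha to 1.34, and in knockout Sdhc to 1.08. Deposited values turned Sdhd to -0.39 and Sdha to -0.33 in knockout and Sdhc to -0.57 in wild type. Averaging all probe sets of a gene turned Sdhd to 0.076 in wild type, Sdha to -0.79 in knockout, Atp5g1 in nerve to 0.017 and Atp5j2 in the interaction to -0.052. Array weights turned Sdhc to -0.011 in wild type. With 1 array left out, the difference ranged from -0.0030 to 0.24 for Uqcrq and -0.091 to 0.0038 for Atp5g1 in nerve, and between wild type tissues from -0.27 to 0.0094 for Sdhd, -0.07 to 0.0045 for Sdha and -0.031 to 0.039 for Sdhc. Without both nerve arrays with high Xist, Atp5f1 turned to 0.0059. Centring and quantile scaling change these by their construction; for the others the cause was not tested. Of the single genes, 515 values kept direction and call, 21 turned in direction, 28 gained a call and 2 lost one.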

Other observations

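Probe sets of the same gene often differed in the sign of their genotype difference. Of the 26 genes with several probe sets, all probe sets had the same sign in motoneurons for 14. Of the 22 genes with several probe sets above 10 in motoneurons, the sign was shared by those probe sets for 15. For the tissue difference in wild type on the quantile scale, the sign was shared for 20 of 26. In motoneurons Uqcrb, Cycs and Cox5a were lower by each of their bright probe sets, by amounts from -0.18 to -0.46 for Uqcrb, -0.17 to -0.74 for Cycs and -0.069 to -0.30 for Cox5a, and the bright probe sets of Cox6a1 differed in sign, at -0.22 and 0.034. These genes were picked out after their values were seen, and the cause of the unequal values was not tested.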
